A study of Bos taurus and Bos indicus x Bos taurus with 938 samples.

Results

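Chromatin accessibility was compared between bovine embryos of 5, 6 or 7 cells made by somatic cell nuclear transfer (SCNT) and by in vitro fertilisation (IVF). These embryos were caught between the 4-cell and the 8-cell stage, when some blastomeres of an embryo had divided and others had not. They were chosen by the cell number and the embryo type in the library titles. No measured value entered that rule, but earlier results of these data were known when it was set. They comprised 14.5% of the blastomeres in the deposited table, which holds 700 others, and came from 23 embryos. Embryos are named here by type and title number, as in SCNT-40. The SCNT group held 13 embryos with 61 blastomeres (5 embryos of 5 cells, 5 of 6 cells and 3 of 7 cells). The IVF group held 10 embryos with 58 blastomeres (2 embryos of 5 cells, 6 of 6 cells and 2 of 7 cells). For 7 more libraries with such titles the table has no column. Each library is an ATAC-seq library of 1 blastomere, in which Tn5 transposase cuts and tags accessible DNA. Oocytes of both groups came from abattoir ovaries and were matured in vitro, and IVF used thawed cryopreserved semen. The sources used here give neither the donor cell of the SCNT embryos nor the sires. All SCNT libraries are labelled Bos taurus and carry the title prefix 15243 (4 of the 13 embryos, all of 5 cells) or 15244 (9 embryos). All IVF libraries compared here are labelled Bos indicus x Bos taurus and carry the prefix 15287. Embryo type, title prefix and organism label therefore cannot be told apart in any comparison below.

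In SCNT the nucleus of a somatic cell is placed in an oocyte whose own chromosomes were removed, so every chromosome descends from 1 differentiated nucleus and its chromatin has to be reset by the oocyte. In IVF the embryo starts from an egg and a sperm genome, and both meiosis in the oocyte and the early cleavage divisions are known to missegregate chromosomes often. In cattle the embryo's own transcription rises strongly around the 8-cell stage, so embryos between the 4- and the 8-cell stage lie shortly before or within that change. Blastomeres of 1 embryo, called sisters here, share their zygote, and the embryo was therefore the replicate. Nothing in the labels says which embryos share a sire, an oocyte collection or a day, so p-values measure the spread between these embryos only.

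The deposited values are 1 for a region called open in a blastomere and 0 otherwise. The regions carry running numbers and neither coordinates nor genes, so no genomic position, gene or sequence can be attached to them, and depth in reads is unknown. A blastomere of these embryos had up to 75561 open regions, with a median of 9203, and 5 had fewer than 1000. No pair of these blastomeres held near-identical calls, the highest Jaccard index (shared open regions over all regions open in either) being 0.332. Along the numbering, neighbouring regions tended to be open in the same blastomeres, which divided the numbering into 29 main blocks of 4700 to 17000 regions. The median correlation between neighbouring stretches was 0.816 inside the main blocks and at most 0.177 at their ends. The region counts of the 29 blocks, in order, correlated with the spans of the 29 cattle autosomes sorted by name as text (Pearson r = 0.985 over 29 points, spans from RefSeq genes of ARS-UCD2.0). With the autosomes sorted by number, r was 0.104. This is a description of an ordering, and no block was assigned to a chromosome. After the main blocks came a segment of 23900 regions without such structure, called mixed here, and then blocks P (4450 regions) and Q (380 regions). Coverage below means the open calls of a block divided by the calls expected from the blastomere's total and from how often each region was open over all 4- to 8-cell blastomeres. A coverage of 1 is the average, and a main block was called absent in a blastomere at a coverage under 0.1. Since the expected calls follow the blastomere's total, low coverage in many blocks raises the coverage of its other blocks. Coverage is thus relative and was not tied to chromosome copies.

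The number of open regions was not shown to differ between SCNT and IVF embryos of 5 to 7 cells. SCNT embryos had a median log10 number of 3.92 ± 0.246 (SD, n = 13), and IVF embryos one of 4.08 ± 0.264 (SD, n = 10), which is 1.46-fold more in IVF (two-sided permutation test over embryos, p = 0.136, adjusted p = 0.171 over 5 measures). SCNT embryo medians ran from 4482 open regions in embryo SCNT-57 to 27782 in embryo SCNT-40. IVF medians ran from 3894 in embryo IVF-519 to 27742 in embryo IVF-554. The groups overlapped over nearly their whole range. Sisters differed little in some embryos and widely in others. The fullest blastomere had 1.23 times the calls of the emptiest in embryo SCNT-40 and 2.07 times in embryo IVF-620, the lowest ratios of each type. Only 2 blastomeres of the 6-cell embryo SCNT-40 were in the table, against all 7 of IVF-620, and such a ratio tends to rise with their number. In embryo SCNT-50, with all 6 blastomeres in the table, it was 2.07. At the other end, in embryo IVF-554 the fullest blastomere (75561 open regions) had 41.2 times the calls of the emptiest (1835). In embryo SCNT-92 (25486 in the fullest) the ratio was 47.9. Without embryo IVF-519 the difference on the log10 scale was -0.219 (exact permutation p = 0.0437), and without embryo SCNT-40 it was -0.208 (permutation p = 0.0482, n = 12 and 10).

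**Figure D1:**
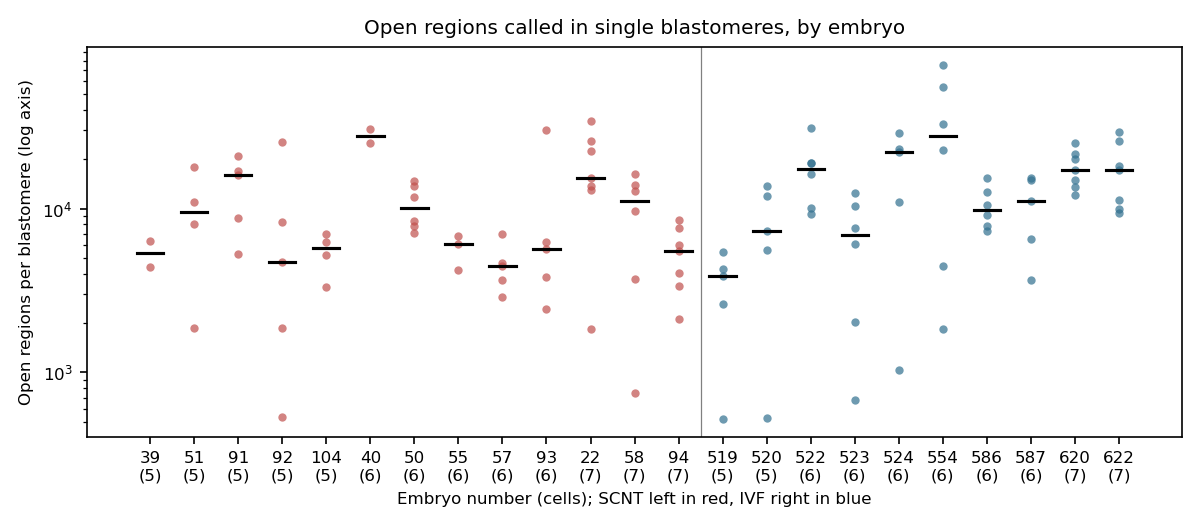
Open regions per blastomere on a log axis, 1 point for each blastomere, by embryo, with the cell number of the embryo in brackets and a line at the embryo's median. Medians of SCNT embryos (red) run from 4482 to 27782 and those of IVF embryos (blue) from 3894 to 27742.

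Whole blocks were absent from blastomeres of IVF embryos and from no assessed blastomere of an SCNT embryo. Among blastomeres with at least 2000 calls in the main blocks, 23 of 51 IVF blastomeres lacked at least 1 main block (45.1%, exact 95% interval 31.1 to 59.7%), in 6 of 10 embryos. None of 54 SCNT blastomeres did, which allows a share of up to 5.56%, or 6.60% by the exact 95% interval. These limits cover counting error only and treat sisters as independent. The lowest coverage of any main block in an assessed SCNT blastomere was 0.211, against 0.0206 in IVF. Per embryo, the percent of blastomeres lacking a block was 0 in all 13 SCNT embryos and 41.7 ± 41 (SD, n = 10) in IVF (permutation test, p = 0.00174, adjusted p = 0.00870). The 10 IVF values were 100% in embryos IVF-587 and IVF-622, 66.7% in IVF-522 and IVF-586, 50.0% in IVF-520, 33.3% in IVF-519 and 0 in IVF-523, IVF-524, IVF-554 and IVF-620. IVF embryos thus spanned the whole range, and 4 of them had the value of the SCNT embryos. With only the embryos that have every blastomere in the table (5 SCNT and 8 IVF) the difference of -39.6 percentage points did not pass (exact permutation p = 0.0692), and with absence set at a coverage under 0.05 it was -12.0 (permutation p = 0.0671).

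The single embryos and blocks described next were chosen after their values were seen. In embryos IVF-622, IVF-586 and IVF-522 a block was absent or low in most or all sisters, and the same held for some blocks of embryo IVF-587, given after them. In embryo IVF-622, a 7-cell embryo, block 11 was absent in all 7 blastomeres, at 0.0629 of the 3321 calls expected over the 7, with coverages of 0.0449 to 0.0878. The same 7 blastomeres were high in block 18, at 1.49 to 2.50, and in block 6, at 1.39 to 5.49, blastomere G having 4457 calls in block 6 where 812 were expected. In embryo IVF-586, a 6-cell embryo, block 24 was absent in blastomeres A, B, C and E, at 0.0454 to 0.0830, and present in D at 1.47 and in F at 1.34. Block 5 of that embryo was at 4.83 in B and 2.47 in C against 0.597 to 1.38 in the other sisters, and block 6 was at 2.65 in F against 0.249 to 0.778 in the rest. In embryo IVF-586 a block was therefore absent in 4 of 6 sisters, beside blocks with high coverage in 1 or 2 sisters. In embryo IVF-522, another 6-cell embryo, block 13 was at 0.0695 to 0.114 in all 6 sisters, under the limit for absence in 3 of them and just over it in the other three. Block 24 of embryo IVF-522 was at 0.0860 in B and 0.136 in A, against 0.858 in D and 1.81, 2.08 and 2.06 in C, E and F. Sisters low and sisters high in the same block stood side by side there.

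In embryos IVF-587 and IVF-520 many blocks were absent, and in IVF-587 some blocks were low in every sister. Embryo IVF-587 (6 cells, 5 blastomeres in the table, all assessed) lacked 20 distinct main blocks in at least 1 blastomere, 10 of them in 1 blastomere only and none in all 5. Its blastomeres A, B, D, E and F lacked 11, 5, 1, 11 and 8 main blocks. Although only 1 block of D fell under the limit, its coverage outside blocks 1 and 12 was at most 0.587. Blocks 4, 7, 16 and 18 were low in all 5: each was absent in 3 blastomeres, and the other sisters reached at most 0.188, 0.141, 0.227 and 0.208. In other blocks the sisters differed. Block 1 had a coverage of 0.0206 in A, 0.0939 in B and 0.0565 in F, but of 7.13 in D and 3.85 in E. In embryo IVF-520 (5 cells) blastomeres C and D each lacked 8 main blocks, A and E lacked none, and B had too few calls to be assessed. Blastomere E was nevertheless low in many blocks, for example at 0.131 in block 4 and 0.136 in block 9, against 3.33 in block 5. Of the 68 absent blastomere-by-block values of the IVF group, 52 lay in these 2 embryos. Embryo IVF-519 (5 cells) had 1 block under the limit, block 16 in blastomere C, with 6 calls where 70.9 were expected. That blastomere was low in many other main blocks, for example at 0.116 in block 15 and 0.143 in block 3, against 4.53 in block 9. Across the 6 embryos 25 of the 29 main blocks were absent at least once, and block 13 was absent in the most embryos (3).

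**Figure D2:**
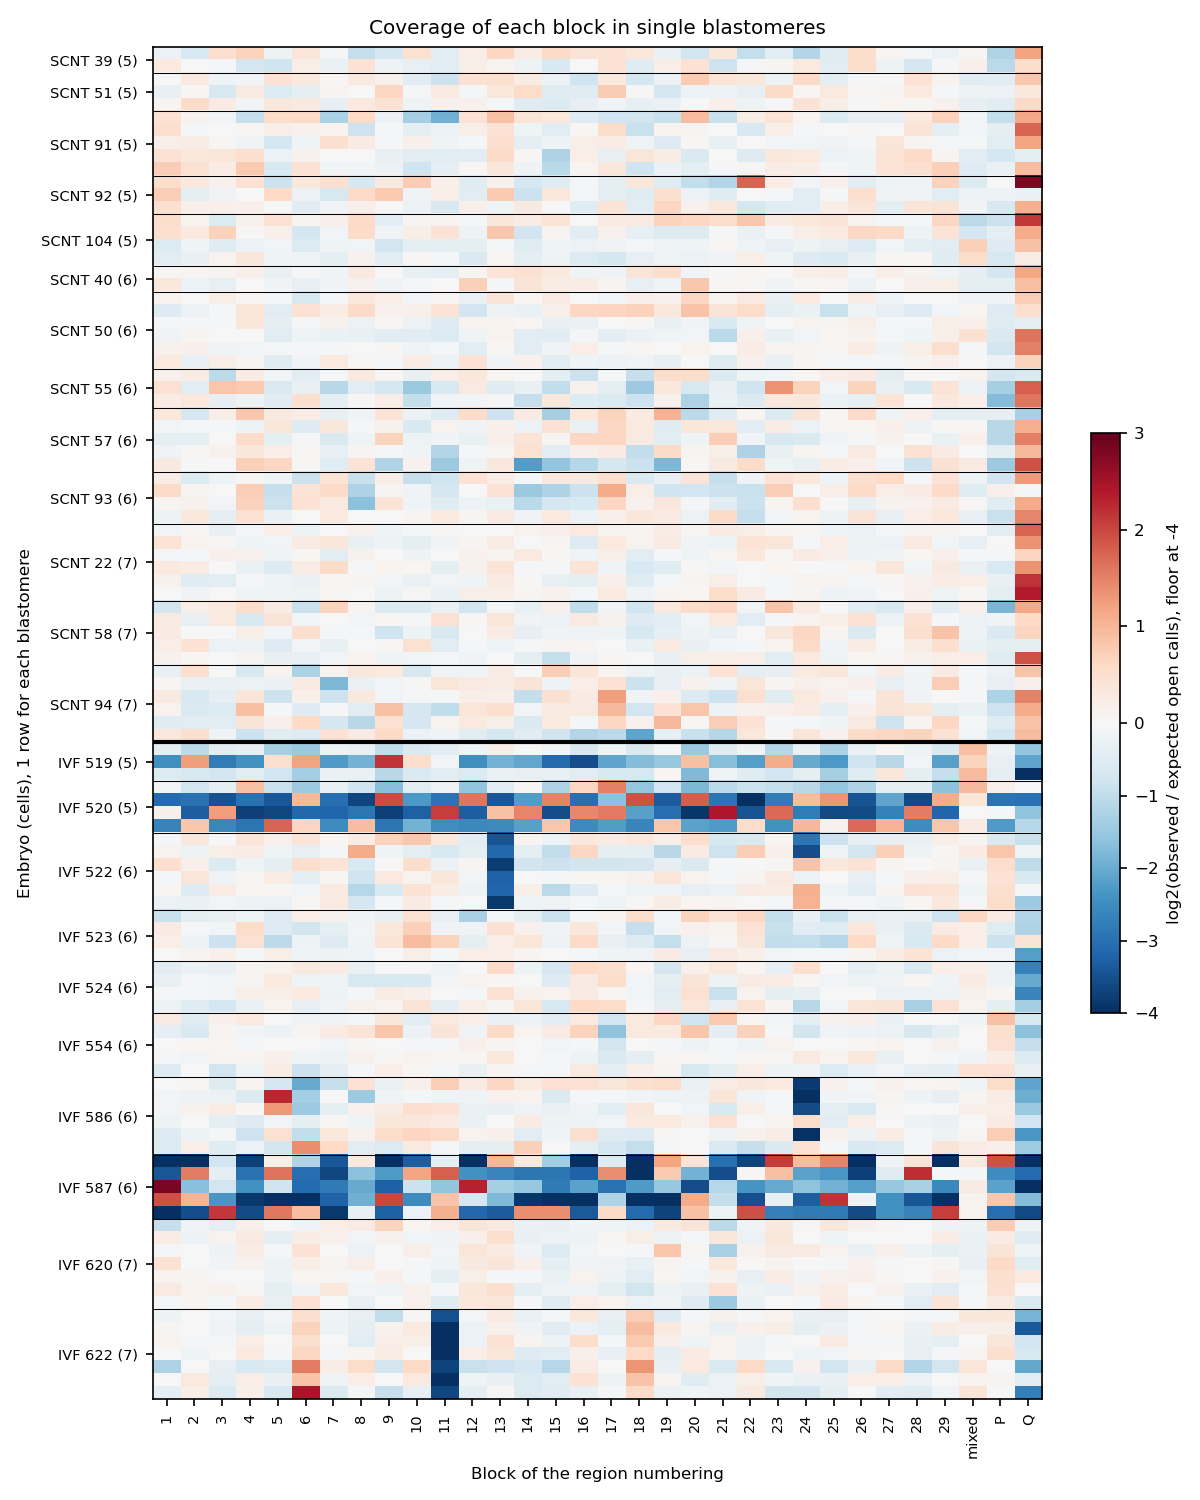
Log2 coverage of each block in the assessed blastomeres (rows, grouped by embryo with the cell number in brackets, SCNT above the thick line, IVF below). Columns are the 29 main blocks, the mixed segment and blocks P and Q, and blue marks low and red high coverage. Block 11 is dark blue in all 7 blastomeres of embryo IVF-622, and rows of embryos IVF-520 and IVF-587 carry many low blocks, a few of them low in every sister of IVF-587.

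IVF embryos had a less even coverage over the main blocks than SCNT embryos. The SD of log2 coverage over the main blocks, as a median per embryo, averaged 0.849 ± 0.696 (SD, n = 10) in IVF against 0.377 ± 0.108 (SD, n = 13) in SCNT (permutation test, p = 0.00510, adjusted p = 0.0127). The SCNT values ran from 0.198 to 0.514 with a median of 0.423. In IVF the 4 embryos without an absent block, IVF-523, IVF-524, IVF-554 and IVF-620, were at 0.461, 0.320, 0.297 and 0.285, within the SCNT range. Embryos IVF-519, IVF-522, IVF-586 and IVF-622 were at 0.471, 0.791, 0.813 and 0.859. Embryos IVF-520 and IVF-587 were at 1.95 and 2.25, and without both of them the difference shrank from -0.472 to -0.160 (exact permutation p = 0.0501). The spread between embryos in the coverage of a main block was larger in IVF than in SCNT for 29 of 29 blocks, with a median SD of 0.281 against 0.148.

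**Figure D3:**
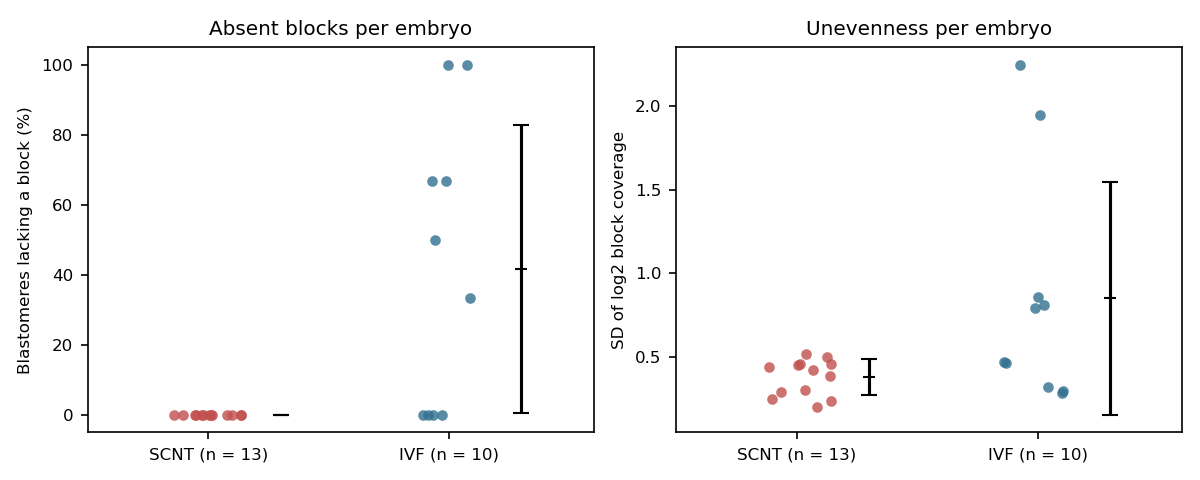
Percent of assessed blastomeres lacking a main block (left) and SD of log2 coverage over the main blocks (right), 1 point for each embryo, with mean and SD beside the points. All 13 SCNT embryos sit at 0% on the left, and embryos IVF-520 and IVF-587 lie highest on the right at 1.95 and 2.25.

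Sisters of IVF embryos resembled each other in block coverage more than blastomeres of different IVF embryos did, and this excess was larger than in SCNT. The correlation of log2 block coverage within an embryo, less that with other embryos of the same type and prefix, averaged 0.252 ± 0.322 (SD, n = 10) in IVF, with 8 of 10 embryos above 0 (exact sign-flip test, p = 0.0254). In SCNT it averaged 0.0228 ± 0.141 (SD, n = 13), with 7 of 13 above 0 (exact sign-flip test, p = 0.569). The difference of -0.229 had a permutation p of 0.0250 (adjusted p = 0.0417). Embryos IVF-622 and IVF-522, with blocks 11 and 13 low in all sisters, had the highest values of 0.893 and 0.666, while embryo IVF-520 was at -0.203 and embryo IVF-587 at 0.0794. The difference did not pass without embryo IVF-622 (-0.158, exact permutation p = 0.0648), without embryo IVF-522 (-0.183, exact permutation p = 0.0579) or with rank correlations (-0.121, permutation p = 0.0560). The excess within IVF also did not pass without embryo IVF-522 (0.206), IVF-524 (0.247) or IVF-622 (0.181), each with an exact sign-flip p of 0.0508.

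Blocks P and Q separated the types in opposite directions. Of 32 blocks and segments tested, 4 passed after Benjamini-Hochberg adjustment (12.5%), 3 of them higher in SCNT (9.38%) and 1 lower (3.12%). Block Q had a coverage of 2.12 ± 0.346 (SD, n = 13) in SCNT against 0.450 ± 0.210 (SD, n = 10) in IVF (permutation p = 1e-05, the smallest that the resamples can give, adjusted p = 3.2e-04). SCNT embryos ran from 1.51 to 3.01 with a median of 2.07, and IVF embryos from 0.140 to 0.867 with a median of 0.429. No SCNT embryo overlapped an IVF embryo in block Q. Block P had a coverage of 0.672 ± 0.119 (SD, n = 13) in SCNT against 1.09 ± 0.263 (SD, n = 10) in IVF (permutation p = 7e-05, adjusted p = 0.00112). SCNT embryos ran from 0.451 to 0.867 with a median of 0.667, and IVF embryos from 0.594 to 1.38 with a median of 1.12. In block P the groups overlapped through embryos IVF-520 (0.594) and IVF-523 (0.831). The highest IVF values of block P were those of embryos IVF-522 (1.38), IVF-554 (1.37) and IVF-620 (1.34), each above every SCNT embryo. Single IVF blastomeres ranged in block P from 0.121 in blastomere F to 3.78 in blastomere A of the same embryo IVF-587.

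**Figure D4:**
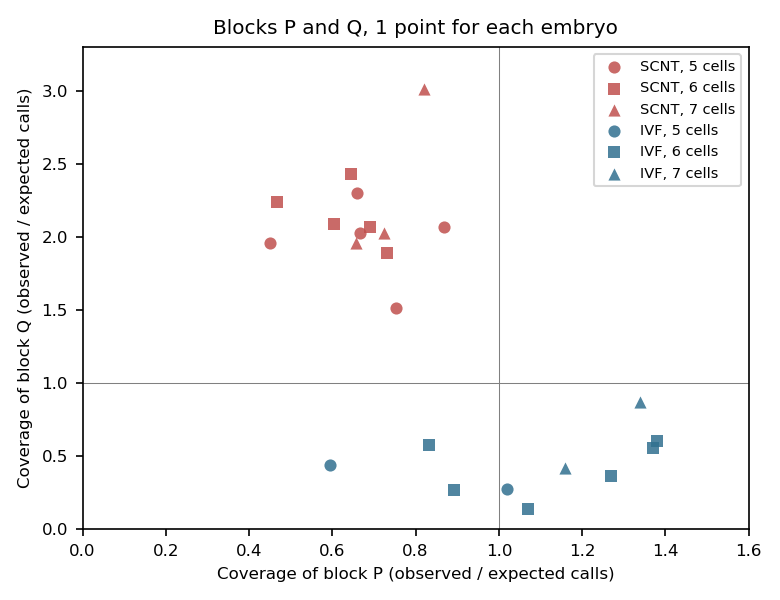
Coverage of block P (horizontal) against block Q (vertical), 1 point for each embryo, marked by type and cell number. SCNT embryos lie at 1.51 or more in block Q and 0.867 or less in block P, and IVF embryos at 0.867 or less in block Q.

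Block Q was also followed in 2 sets of its regions, split by their calls at other stages. A list of Q regions, 32.6% of the block, was drawn from 2-, 4- and 8-cell embryos only, as those with at least 10 SCNT calls there and at least 4 times the IVF calls. The criterion was set after block Q had been seen to differ, and the list shares the title prefixes with the embryos described here, so it is given without a test. In embryos of 5 to 7 cells these regions had calls in 13 of 13 SCNT embryos, at 10.0 to 19.6 per 10000 open calls with a median of 13.2. In IVF they had 8 calls in all, 5 in embryo IVF-520, 2 in embryo IVF-519 and 1 in embryo IVF-522. The other 7 IVF embryos had 0, including embryo IVF-554 with 192487 open calls. For the remaining 77 Q regions with at least 10 calls at those stages, SCNT embryos had 3.18 to 7.02 calls per 10000 with a median of 4.68, and IVF embryos 1.36 to 8.60 with a median of 3.32. The types overlapped in these 77 regions. The 2 sets were split by the ratio of SCNT to IVF calls, so a larger contrast in the first was favoured by the choice. It does not show that the Q difference is confined to that set. Q regions with fewer than 10 calls at those stages are in neither set.

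Among the main blocks, block 4 and block 8 passed the test, both higher in SCNT. Block 4 was at 1.11 ± 0.138 in SCNT and 0.811 ± 0.363 in IVF, and block 8 at 1.04 ± 0.138 and 0.838 ± 0.182 (SD, n = 13 and 10, permutation test, adjusted p = 0.0464 for both). With 1 embryo left out, block 4 did not pass in 15 of 23 fits and block 8 in 13 of 23, with adjusted p of up to 0.0991 (permutation tests, exact where 9 IVF embryos were left). Without embryo IVF-587 the differences were 0.223 and 0.168 instead of 0.303 and 0.205, with exact permutation adjusted p of 0.0792 and 0.0786. Over blastomeres that lacked no block they were 0.106 and 0.0160 (exact permutation adjusted p = 0.468 and 0.913, n = 13 and 8). The mixed segment was at 0.947 ± 0.111 in SCNT and 1.13 ± 0.243 in IVF and did not pass (n = 13 and 10, permutation test, adjusted p = 0.0523). The highest mixed coverage was 1.75 in embryo IVF-519, which also had the lowest median number of open regions, and without that embryo the difference was -0.119.

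Few single regions passed the test between the types, most of them in block Q. Of 149440 regions open in at least 10% of the embryos, 15 had more calls in SCNT than expected from depth (0.0100%) and 0 had fewer (0%), by a quasi-Poisson score test over embryos with limma-moderated dispersion, an exact binomial bound and Benjamini-Hochberg adjustment. Without adjustment 9419 regions (6.30%) had a p under 0.05, 4646 higher and 4773 lower in SCNT. The score test without the exact bound also called 15 and 0, while limma on log2 ratios per embryo called 0.398% higher and 427 regions (0.286%) lower, all 15 among them. The region test had low sensitivity: on simulated data it missed most of the changed regions, and all of those with the smaller of the simulated fold changes. Few called regions therefore do not show that few regions differed. The count of 0 lower regions came with small expected numbers of calls, at a median per region of 2.03 in all SCNT embryos and 2.97 in all IVF embryos. Block Q held 9 of the 15 called regions, although 0.147% of the tested regions lay in it. Blocks 1 and 28 held 2 each, and block 7 and the mixed segment 1 each. The 5 called regions of the main blocks compare with 133175 tested there (0.00375%). In block Q 65.8% of the tested regions had SCNT calls and no IVF call, against 5.91% over the main blocks, and 2 had the reverse. In block P 376 of 2128 (17.7%) had IVF calls and no SCNT call, against 9.15% over the main blocks, and 31 (1.46%) had the reverse. Regions entered by their calls in both types together, so those with calls in 1 type only entered through that type. The same holds for the main blocks, and these shares were not tested.

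The called regions of block Q had no IVF call at all. Region V302523 was open in 27 blastomeres of 11 SCNT embryos and in 0 IVF blastomeres, where 11.7 and 15.4 calls were expected, which is at least 11.9-fold higher in SCNT when 3 calls are taken as the limit over the IVF group (adjusted p = 9.84e-04). Region V302513 was open in 22 blastomeres of 11 SCNT embryos and in 0 IVF blastomeres, at least 9.86-fold higher (adjusted p = 0.00288). Of the 9 called Q regions 8 lay between V302511 and V302529, a stretch picked after its values were seen, with 15 tested regions, 2.37 times the 85.2 SCNT calls expected, and 0 IVF calls. With no IVF call in the stretch, all 15 could only point to SCNT, so their shared direction adds nothing. Of the 15, 13 had a p under 0.05 before adjustment, against 46.6% of the tested regions of block Q. The 8 called regions, which set the ends of the stretch, are among these 13. At the 4-cell stage V302523 had 21 SCNT calls and 0 IVF calls, and at the 8-cell stage 39 and 7. V302513 had 8 and 1 calls at the 4-cell stage and 30 and 2 at the 8-cell stage.

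Outside block Q, 5 regions passed with calls in both types, all of them in main blocks. V7878 in block 1 was open in 25 SCNT and 2 IVF blastomeres (log2 ratio of observed over expected calls 4.04, SE 1.15, adjusted p = 0.0222). It was open in 12 of 13 SCNT embryos and in embryo IVF-524 alone among the IVF embryos. V6447, also in block 1, was open in 26 SCNT and 4 IVF blastomeres (log2 ratio 3.08, SE 0.677, adjusted p = 0.0276), in 11 SCNT and 4 IVF embryos. V75740 in block 7 was open in 18 SCNT blastomeres and 1 IVF blastomere (log2 ratio 4.61, SE 1.42, adjusted p = 0.0435). V262108 and V262122 lie 14 numbers apart in block 28. V262108 had 21 SCNT and 2 IVF calls (log2 ratio 3.81, SE 1.03, adjusted p = 0.0338), and V262122 had 24 and 3 (log2 ratio 3.4, SE 0.782, adjusted p = 0.0254). Of the 14 tested regions in that stretch, also picked afterwards, 12 were higher in SCNT and 6 had an unadjusted p under 0.05. Both counts include the 2 called regions that set its ends. Over the tested regions of block 28 the shares were 53.7% and 5.80%. In embryo SCNT-22, V262122 was open in 6 of 7 blastomeres and V262108 in 5 of 7. These 5 regions were also higher in SCNT at the 4- and 8-cell stages, by log2 ratios of 0.22 (V7878) to 2.10 (V6447) and of 1.07 (V7878) to 2.63 (V262122), but passed at neither stage. The lowest adjusted p there was 0.0523, for V262122 at the 8-cell stage. The remaining called region was V284084 in the mixed segment, with 17 SCNT calls and 0 IVF calls.

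The number of called regions changed with the embryos and blastomeres that entered. Leaving out embryo SCNT-58 left 8 called regions, and leaving out embryo IVF-522, IVF-554, IVF-586, IVF-620 or IVF-622 gave 4, 5, 7, 4 and 4. Without embryo IVF-524 there were 9 higher and 1 lower. Each fit without IVF-554, IVF-586, SCNT-57 or SCNT-94 also had 1 lower region among those called. V302523 and V302513 passed in each of the 23 fits with 1 embryo left out, while V7878 failed in 5 of them and V75740 in 17. With blastomeres lacking a block left out, none of the regions passed (smallest adjusted p = 0.412). In that fit 13 SCNT and 8 IVF embryos remained. The 7 named regions kept their direction there, with log2 ratios of 2.56 or more (a lower limit for V302523 and V302513).

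No region passed as lower in SCNT in the main test, and the 3 with the smallest unadjusted p are given as regions that did not pass there. V298744 in block P was open in 8 SCNT and 48 IVF blastomeres (log2 ratio -2.32, SE 0.495, adjusted p = 0.0639). It had a call in 7 of 13 SCNT embryos and in 10 of 10 IVF embryos. V278116 in the mixed segment had 14 and 57 calls (log2 ratio -1.83, SE 0.400, adjusted p = 0.0695), and IVF embryos had it open in nearly every blastomere, for example in 7 of 7 in embryos IVF-620 and IVF-622. V289381, also mixed, had 4 and 35 calls (log2 ratio -2.79, SE 0.654, adjusted p = 0.115). It was open in every blastomere of embryos IVF-522, IVF-554, IVF-586 and IVF-620 and in 6 of 7 of embryo IVF-622, but in 0 of 5 in embryos IVF-519 and IVF-520 and in 1 of 5 in embryos IVF-524 and IVF-587. When only regions open in at least 25% of the embryos were tested, 53 regions were higher and 31 lower in SCNT, these 3 among the lower ones. All 3 were also called lower by limma on log2 ratios per embryo (adjusted p = 5.15e-04, 9.19e-04 and 0.0191). In the region test with 1 embryo left out, V298744 passed without SCNT-94, IVF-554 or IVF-586, and V278116 passed without SCNT-57. V289381 passed with embryos IVF-520 and IVF-587 both left out.

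Regions that differed between the types at the 8-cell stage pointed the same way in embryos of 5 to 7 cells. The same test at 8 cells, on 21 SCNT and 14 IVF embryos of which none is among the 23 here, called 848 regions higher in SCNT (0.453%) and 760 lower (0.406%) of 187128 tested, and 25392 (13.6%) had a p under 0.05 before adjustment. Of the 848, 809 were tested at 5 to 7 cells, and 774 of them were higher in SCNT, with a median log2 ratio of 1.13 over the 89.4% with calls in both types and 1.25 with absent calls set to 3. Of the 760, 749 were tested and 744 were lower in SCNT, with a median log2 ratio of -1.75 over the 83.3% with calls in both types and -1.65 with absent calls set to 3. Over all 149440 tested regions 72836 were higher and 76604 lower. Their median log2 ratio was 0.06 over those with calls in both types and -0.192 with absent calls set to 3. The medians with absent calls set to 3 leave out regions with at most 3 calls in each type. They cover 752 and 745 regions of the 2 lists and 82776 of all tested regions. Of these listed regions 10 passed at 5 to 7 cells, 9 of them in block Q and 1 in the mixed segment. The 2 stages share no embryo, but within each the type goes with the title prefix and the organism label, so a shared type difference and a shared label difference cannot be told apart. No test was made of these counts.

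Embryo by embryo, the regions called at 8 cells within the main blocks gave different pictures in the 2 lists. The regions lower in SCNT at 8 cells (79.3% of that list lay in the main blocks) had an observed over expected ratio of 0.317 to 0.535 in all 13 SCNT embryos, with a median of 0.373. In IVF the ratio was 0.401 in embryo IVF-520, 0.402 in IVF-519, 0.498 in IVF-587 and 0.525 in IVF-524, inside the SCNT range. It was 1.08 in embryo IVF-523, 1.42 in IVF-554, 1.53 in IVF-622, 1.75 in IVF-522, 2.12 in IVF-586 and 2.34 in IVF-620. Thus 4 IVF embryos, among them both of 5 cells, lay inside the SCNT range and the other 6, among them both of 7 cells, lay above every SCNT embryo. With 2 embryos each at 5 and 7 cells, a link to cell number was not tested. The 4 had median numbers of open regions from 3894 (IVF-519) to 22192 (IVF-524), and the other 6 from 6873 (IVF-523) to 27742 (IVF-554). Embryos IVF-520 and IVF-587 also held most absent blocks, while IVF-524 had none. For the regions higher in SCNT at 8 cells (67.1% of that list), SCNT embryos ran from 0.843 (embryo SCNT-51) to 2.84 (embryo SCNT-55) with a median of 1.24, and IVF embryos from 0.342 (embryo IVF-587) to 1.66 (embryo IVF-523) with a median of 0.641. The types overlapped in this list, mainly through embryos IVF-523 (1.66), IVF-519 (1.03) and IVF-524 (1.00). SCNT embryos differed most among themselves here: embryos SCNT-55, SCNT-57, SCNT-93 and SCNT-94 were at 2.84, 2.30, 2.29 and 2.39, and these 4 had median numbers of open regions of 6070, 4482, 5666 and 5478. Embryos SCNT-22, SCNT-40 and SCNT-91, with medians of 15302, 27782 and 15957 open regions, were at 1.13, 1.14 and 0.954. Embryos SCNT-39, SCNT-92 and SCNT-104, with low medians of 5338, 4722 and 5718, were also near 1, at 1.24, 1.09 and 1.06. Embryos SCNT-50, SCNT-58 and SCNT-51, with medians of 10080, 11164 and 9508, were at 1.61, 1.57 and 0.843. The part of depth in this spread was not tested.

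**Figure D5:**
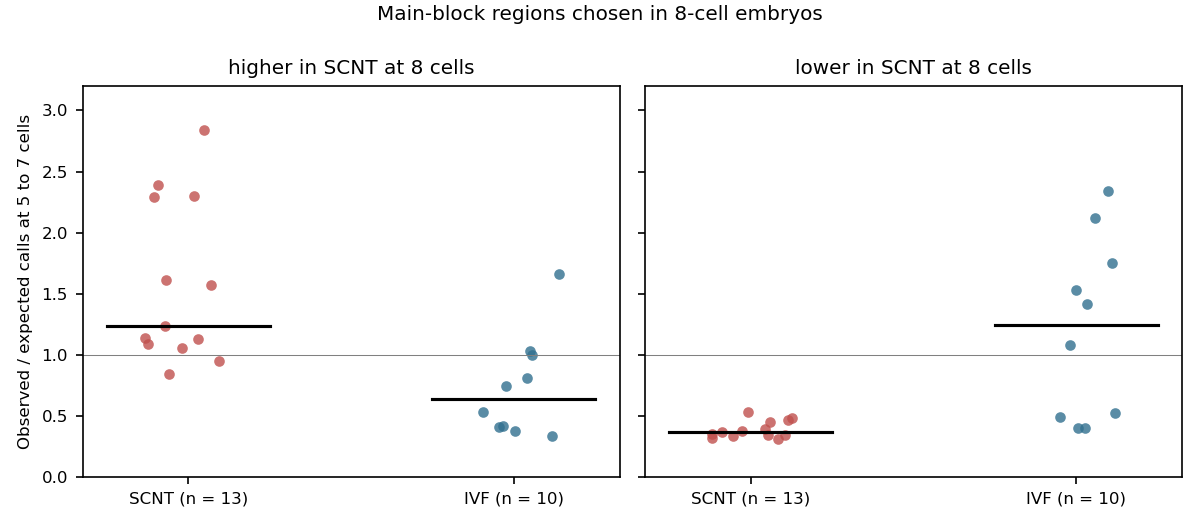
Observed over expected open calls at 5 to 7 cells, 1 point for each embryo, in main-block regions called higher (left) or lower (right) in SCNT in 8-cell embryos, with a line at the median. On the right all 13 SCNT embryos lie between 0.317 and 0.535, while IVF embryos range from 0.401 to 2.34.

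Sisters shared slightly more open regions than unrelated blastomeres in some embryos, without a difference between the types. At 1000 calls drawn from each blastomere, the Jaccard index within an embryo less that with other embryos of the same type and prefix averaged 0.00129 ± 0.00282 (SD, n = 13) in SCNT, with 8 of 13 embryos above 0 (exact sign-flip test, p = 0.137). In IVF it averaged 0.00333 ± 0.00699 (SD, n = 10), with 7 of 10 above 0 (exact sign-flip test, p = 0.0488). The type difference of -0.00204 did not pass (permutation p = 0.428). Embryo IVF-519 stood apart at 0.0225, with an index of 0.0376 between its sisters. Without it the IVF mean was 0.00120 (exact sign-flip p = 0.0977) and the type difference 8.99e-05 (exact permutation p = 0.935).

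Within single cell numbers the P and Q differences kept their direction. Among 6-cell embryos (5 SCNT and 6 IVF) block Q was at 2.14 ± 0.201 and 0.418 ± 0.191 (SD, n = 5 and 6, exact permutation p = 0.00216, the smallest the design allows) and block P at 0.627 ± 0.102 and 1.14 ± 0.240 (SD, exact permutation p = 0.00649). Among 5-cell embryos (5 and 2) block Q was at 1.97 ± 0.288 and 0.356 ± 0.119 (SD, exact permutation p = 0.0476, the smallest possible), while block P at 0.680 ± 0.153 and 0.808 ± 0.304 did not differ beyond its spread (exact permutation p = 0.476). Among 7-cell embryos (3 and 2) no p under 0.100 is possible. There block Q was at 2.33 ± 0.589 and 0.642 ± 0.317 and block P at 0.733 ± 0.0816 and 1.25 ± 0.128. The percent of blastomeres lacking a block in IVF was 41.7 ± 11.8 (SD, n = 2) at 5 cells, 38.9 ± 44.3 (SD, n = 6) at 6 cells and 50.0 ± 70.7 (SD, n = 2) at 7 cells, and 0 in every SCNT group. At 6 cells alone neither that difference (exact permutation p = 0.182) nor that in unevenness (-0.443, exact permutation p = 0.167) passed. The SCNT embryos of prefix 15243 and 15244 overlapped in each measure, for example in block Q at 1.51 to 2.07 (4 embryos, all of 5 cells) and 1.89 to 3.01 (9 embryos).

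None of these type differences was shown to be particular to embryos of 5 to 7 cells. The difference in the percent of blastomeres lacking a block was -41.7 percentage points here, -45.2 at the 4-cell stage (22 SCNT and 20 IVF embryos) and -25.6 at the 8-cell stage (21 and 14). For unevenness the differences were -0.472, -0.466 and -0.270, for block P -0.422, -0.465 and -0.472, and for block Q 1.67, 1.22 and 1.39. In log10 open calls they were -0.165, -0.241 and -0.310. Of 12 tests of a difference between stages, made by permuting type labels within each stage, none passed (adjusted p of 0.850 or more). The lowest unadjusted permutation p was 0.0708, for the mixed segment, where the type difference was -0.188 here and 0.0544 at the 8-cell stage. Block absence in SCNT embryos was 5.68% ± 21.7 (SD, n = 22) at the 4-cell stage, 0 here and 0 at the 8-cell stage (n = 21).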

How the data were processed

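The deposited table gives, per the file headers, 302830 numbered regions by 819 columns, with values of 1 (taken as open, 3.83%) or 0. The submitters' processing notes list bedtools, Bowtie2 2.2.6 and FastQC 0.10.1. Neither the genome build nor the rule for regions and open calls is given in the sources used here. An absent call can mean few fragments as well as closed chromatin.

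Columns were tied to titles by number with 1 constant offset for each title prefix, an inference from the numbering. Members, measures and lists were chosen with earlier results of these data known.

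The model set the chance of an open call to 1 - exp(-ab), with a factor a for the blastomere and b for the region, fitted to totals in 12 iterations (519 4- to 8-cell blastomeres for blocks, the stage alone for regions). Block ends were found without labels in 419 blastomeres with at least 8000 calls, from bins of 100 regions, where the correlation across 10 bins on each side fell below 0.3. Tests were two-sided over embryos: 100000 permutations, or exact enumeration with under 10 embryos in a group, and for regions the score test with limma 3.58.1 in R 4.3.3 on embryos with at least 1000 calls. The threshold was an adjusted p of 0.05. Models of read counts were not used, since the values are binary. The quasi-Poisson score test took open calls summed per embryo. Both tests were tested on simulated data. The first simulation for regions recovered none of its changes; a second, with larger changes in more often open regions, recovered a minority, with no call among unchanged regions. The region test was left as it was, and it had been run on the real data before. Regions named are the 5 with the smallest adjusted p among those passing with calls in both types, the 2 with the smallest p and none in one type, and, where fewer than 3 passed, the 3 with the smallest unadjusted p; blocks named are those passing and those outside the main ones. V284084, blocks followed in single embryos and the Q lists were chosen after their values were seen.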

Additional observations from a re-analysis of the deposited data

Results flagged for a closer look

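Of 11 measures examined in the 10 IVF embryos, 3 had an embryo far from the rest by Dixon's test, which chance gives in about 1 in 20 groups. Embryo IVF-519 had a coverage of 1.75 in the mixed segment, where the next embryo was at 1.26. The same embryo had the highest excess of shared open regions among sisters, 0.0225 against 0.00524 in the next one. Embryo IVF-523 had a ratio of 1.66 in the main-block regions that were higher in SCNT at 8 cells, where the next IVF embryo was at 1.03.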

How the results depend on the processing

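Over 43 results, 958 alternative values were computed: 73.5% kept their direction and their side of the threshold (counts stayed within 1.5 times), 16.2% kept their direction but no longer passed, 2.09% newly passed, 8.04% were counts that moved further and 2 values turned in sign. The 2 were the type difference in shared open regions without embryo IVF-519 (8.99e-05) and the difference between the type effect on unevenness here and at the 4-cell stage without embryo IVF-587 (0.150 instead of -0.00597), neither of which passed either way. The alternatives without embryos IVF-520 and IVF-587 together, the stage differences without IVF-587 and the leave-one-out fits for regions, sharing and sister profiles were chosen after seeing the data. With 6-cell embryos only, the difference in blastomeres lacking a block (-38.9 percentage points) and in unevenness (-0.443) did not pass, 0 blocks passed instead of 4 and 0 regions instead of 15. With only embryos that have every blastomere in the table the first 2 were -39.6 and -0.377, neither passing, and 1 block passed. Absence under 0.05 gave -12.0, and unevenness without embryos IVF-520 and IVF-587 was -0.160. The block count was 2 with SCNT of prefix 15244 only, with blastomeres lacking no block and with column offsets shifted by -1. That shift also gave -0.224 for log10 open calls, which then passed, and -0.108 for sister profiles, which then did not. Rank correlations gave -0.121 for sister profiles. Regions called, as counts and as percent of those tested, were 15 (0.0100%) at first, 5 (0.00259%) with prefix 15244 only, 0 without blastomeres lacking a block, 0 with embryos thinned to equal totals, 54 (0.0361%, all higher) with depth from commonly open regions, and 84 (0.166%; 53 or 0.105% higher, 31 or 0.0614% lower) when open in at least 25% of embryos. With limma they were 0.684% (0.398% higher, 0.286% lower). Without embryos IVF-520 and IVF-587, 4 regions (0.00287%) were lower in SCNT. Each of the 3 larger sets held all 15. The cause of these changes was not tested.

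With 1 embryo left out in turn, the difference in log10 open calls ran from -0.219 to -0.125, in blastomeres lacking a block from -46.3 to -35.2, in unevenness from -0.535 to -0.317, in shared regions from -0.00253 to 8.99e-05 and in sister profiles from -0.280 to -0.158. The number of blocks ran from 2 to 6 and the regions called from 0.00284% to 0.0115% (4 to 17 regions), with 0 to 7.64e-04% lower (at most 1 region) and the rest higher. Blocks fell to 2 without embryo SCNT-51, SCNT-91, SCNT-92, SCNT-94, SCNT-40, SCNT-50, SCNT-55 or SCNT-57 or without embryo IVF-519 or IVF-586. Blocks P and Q passed in all 23 such fits. No paired analysis was possible because embryo numbers mark single embryos and do not pair SCNT with IVF. Reads behind a call are unknown, and the median region was expected to have 2.03 calls in SCNT and 2.97 in IVF, which limits the region test.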
